A study of Danio rerio with 12 samples.

Results

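The clustered protocadherins were followed as a gene family through early zebrafish embryos with and without smchd1. They were chosen by name, as every gene identifier whose symbol starts with pcdh1 or pcdh2 followed by a subfamily letter and a number or letter, and 35 of the 31462 identifiers in the tables met this rule. The rule itself used no measured value, but the members were chosen with earlier results of these data known. Of the 35, 21 belong to the pcdh1 cluster (3 pcdh1a and 18 pcdh1g genes) and 14 to the pcdh2 cluster (2 pcdh2aa, 10 pcdh2ab, 1 pcdh2ac and 1 pcdh2g gene). In the RefSeq gene table of assembly GRCz12tu, 27 of the 35 were found by symbol. Of these, the pcdh1 genes lie together on chromosome 10 and the pcdh2 genes together on chromosome 14. pcdh2ab8 was not found there by symbol and is placed in its cluster by name only.

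Clustered protocadherins are cadherin-like adhesion proteins of the cell surface. Within a cluster, many variable exons lie in a row, each with its own promoter and each encoding the extracellular part of a different protein, and they are spliced to shared constant exons that encode a common cytoplasmic tail. In the nervous system each neuron uses a small set of these promoters, a choice that in mammals involves CTCF and cohesin, and matching proteins on facing membranes let a neuron tell its own branches from those of its neighbours. In zebrafish the letter a marks alpha-type and the letter g gamma-type genes. In the mouse, SMCHD1 is known as a repressor of clustered protocadherin genes.

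The embryos were of the AB strain, each library pooled 30 to 50 of them, and poly-A RNA of 3 libraries was read for each of 4 groups. Wildtype (wt) embryos were compared with MZ smchd1 embryos, which were homozygous for the CRISPR-made null allele lof1 (genotype lof1/lof1) and came from homozygous mothers, so that they lacked both the maternal and the zygotic product. Both genotypes were sampled while the embryo still runs on maternal RNA (4- to 8-cell) and after its own transcription has started (sphere). The mutant is a single line carrying 1 of the alleles the study made, and it had no rescued control in these data. MZ embryos came from homozygous mothers, which cannot lay wt embryos, so the genotypes had different mothers. A difference between the genotypes cannot be told apart from one between clutches or parental backgrounds. The labels do not say how the parents were related.

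Libraries held 7829742 to 23681822 expected counts, and the smallest was MZ replicate 1 at the sphere stage, in which the ribosomal RNA gene removed before testing took 3.98% of the counts against at most 0.398% elsewhere. The targeted transcript, SMCHD1, had a mean CPM (normalised read count scaled to a fixed library total) of 235 ± 24 in wt against 6.42 ± 1.23 in MZ embryos of the 4- to 8-cell stage (n = 3 each), and of 226 ± 56.8 against 3.65 ± 0.341 at the sphere stage. Zygotic genes of the blastula summed to 8.44 ± 0.891 (wt) and 7.69 ± 2.29 CPM (MZ) at the earlier stage, and to 1343 ± 318 and 1244 ± 431 CPM at the later one, in the order that the stage labels give.

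All members were low. Of the 35, 2 (pcdh1g30 and pcdh2aa1) had no read in any of the 12 libraries, 19 had fewer than 10 expected counts over all libraries, and 14 had 10 or more. The related sequences of the family also shared reads. RSEM, the program behind the counts, splits a read among the genes it could come from, and 89 of the 129 member values above 0 (69.0%) were not whole numbers, against 6.4% over all genes (a value within 0.005 of a whole number was taken as whole). The counts of a single member are therefore uncertain where a relative could have taken or given reads, while summed counts over a subfamily do not move with a split inside it. Summed TPM can still move, since TPM also depends on length. In MZ replicate 1 of the 4- to 8-cell stage, 2 counts of pcdh1g26 gave 0.26 TPM and 46.95 counts of pcdh1g3 gave 0.83 TPM. All 8 values above 0 of pcdh2ab8 were fractional. The pcdh2ab sums were whole at the 4- to 8-cell stage in wt (55, 24 and 64 counts) and in MZ replicates 1 and 2 (48 and 18), but not in MZ replicate 3 (19.91) or in 5 of the 6 sphere libraries (15.26 to 59.21, the sixth being 36.99, within the rounding of its members), so that these subfamily sums also hold reads split with genes outside the subfamily.

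**Figure D1:**
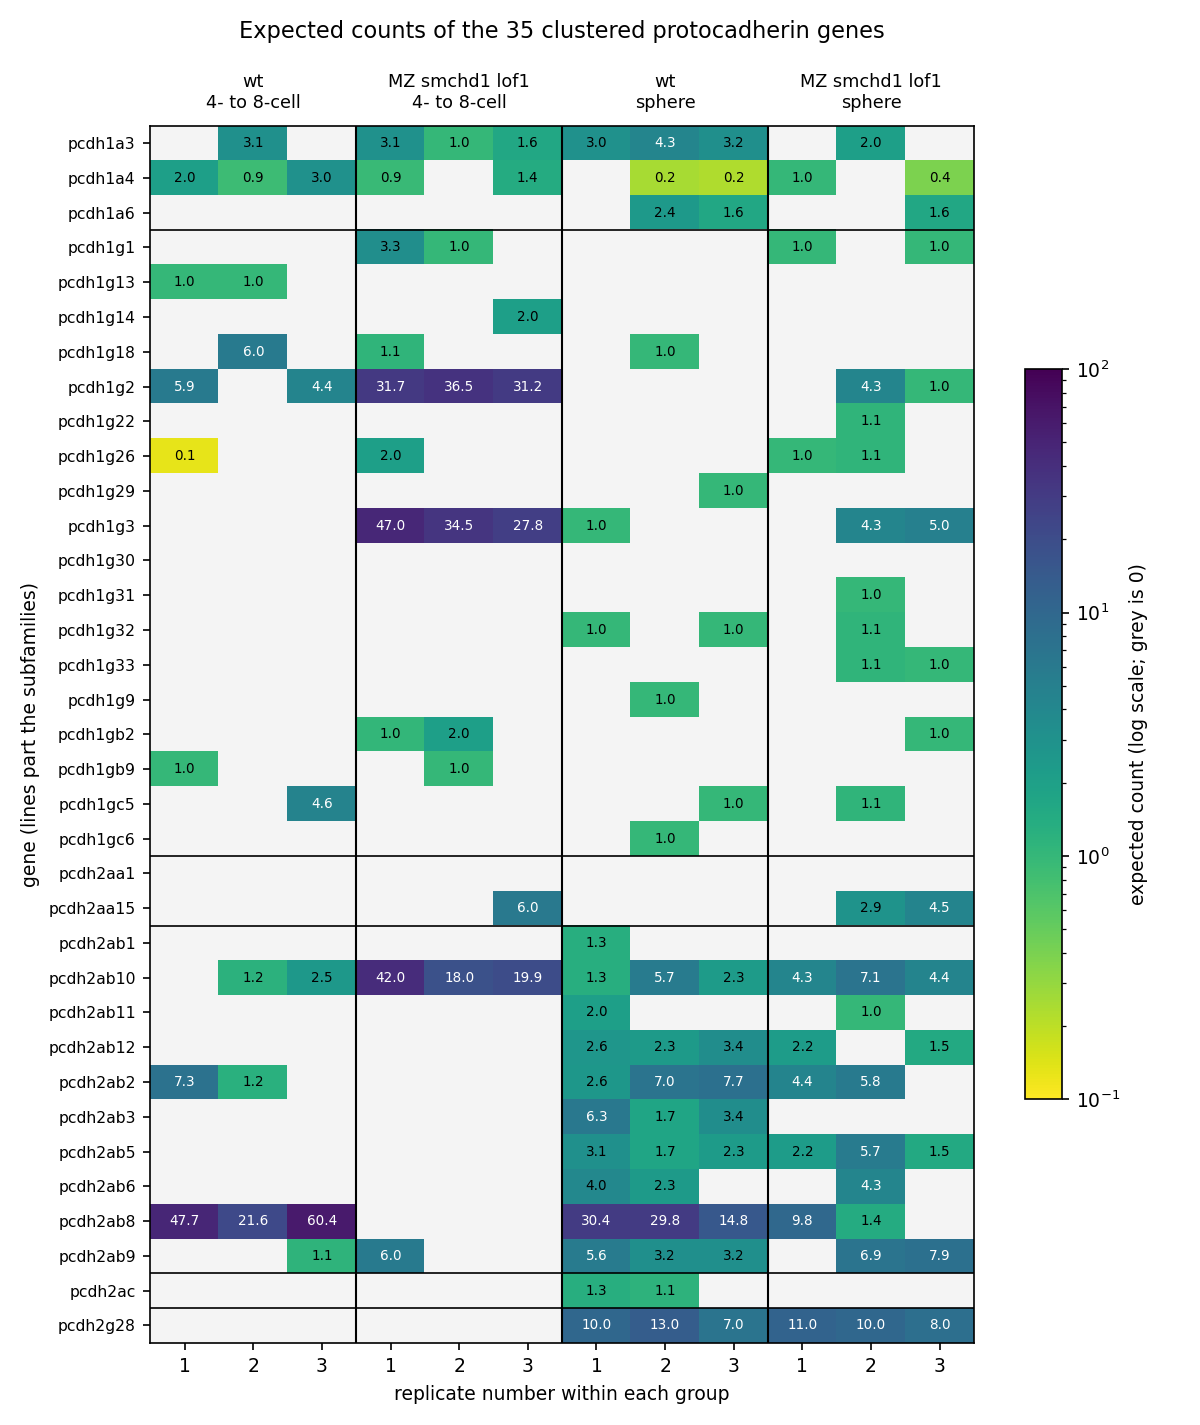
Expected counts of each of the 35 clustered protocadherins (vertical axis, by subfamily) in each of the 12 libraries (horizontal axis, 3 replicates per group), with the shade on a log scale and grey for 0. At the 4- to 8-cell stage the counts sit in pcdh2ab8 in wt and in pcdh1g2, pcdh1g3 and pcdh2ab10 in MZ embryos, and at the sphere stage more pcdh2 genes hold a few counts each.

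The summed level of the clustered protocadherins was higher in MZ than in wt embryos before zygotic transcription and about equal after it. Their summed TPM, a level scaled by gene length that can be added over genes, was 1.37, 0.86 and 1.93 in the wt and 2.84, 2.24 and 2.42 in the MZ libraries of the 4- to 8-cell stage. Every MZ library lay above every wt library, and the means of 1.39 ± 0.535 and 2.5 ± 0.308 (SD, n = 3) gave a ratio of 1.80. The libraries of 28.9% of all single genes tested did not overlap either at this stage. A few genes made up these sums. pcdh1g3, pcdh1g2 and pcdh2ab10 held 30.3%, 28.3% and 27.5% of the MZ sum, and pcdh2ab8 held 74.8% of the wt sum. Of the 35 members, 22 in MZ and 23 in wt embryos had no count. In sphere embryos the sums were 1.54, 1.81 and 1.15 in wt and 1.93, 1.42 and 1.05 in MZ embryos. These ranges overlapped, with means of 1.5 ± 0.332 and 1.47 ± 0.442 and a ratio of 0.978. The MZ sum thus stood 1.70-fold lower at the sphere stage than at the 4- to 8-cell stage with no overlap of libraries, while the wt sums of both stages overlapped (ratio 1.08). Changes between the stages were common, since 39.5% of all single genes tested were called in MZ embryos. The share of all genes without overlap between the stages is not given here. In pooled embryos, fewer cells of a type and less RNA per cell cannot be told apart. No p-value is given for sums over the family.

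The difference in the early sum came from the pcdh1 cluster, and within it from the gamma-type genes. The 18 pcdh1g genes summed to 0.16, 0.16 and 0.18 TPM in wt and 1.76, 1.71 and 1.51 TPM in MZ embryos of the 4- to 8-cell stage, a ratio of 9.96. In sphere embryos they summed to 0.04, 0.07 and 0.06 TPM in wt and 0.08, 0.36 and 0.22 TPM in MZ embryos, a ratio of 3.88. The highest wt value (0.07) and the lowest MZ value (0.08) nearly met, and the lowest MZ value rests on 2 counts. The 3 alpha-type pcdh1a genes stayed low in all groups, with means from 0.0533 ± 0.0252 TPM in MZ sphere embryos to 0.123 ± 0.119 TPM in wt sphere embryos, and their libraries overlapped in each comparison. The pcdh2 cluster overlapped between genotypes at both stages, with 1.14 ± 0.525 TPM in wt and 0.77 ± 0.246 TPM in MZ embryos of the 4- to 8-cell stage and 1.32 ± 0.26 and 1.19 ± 0.515 TPM at the sphere stage (n = 3 each).

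**Figure D2:**
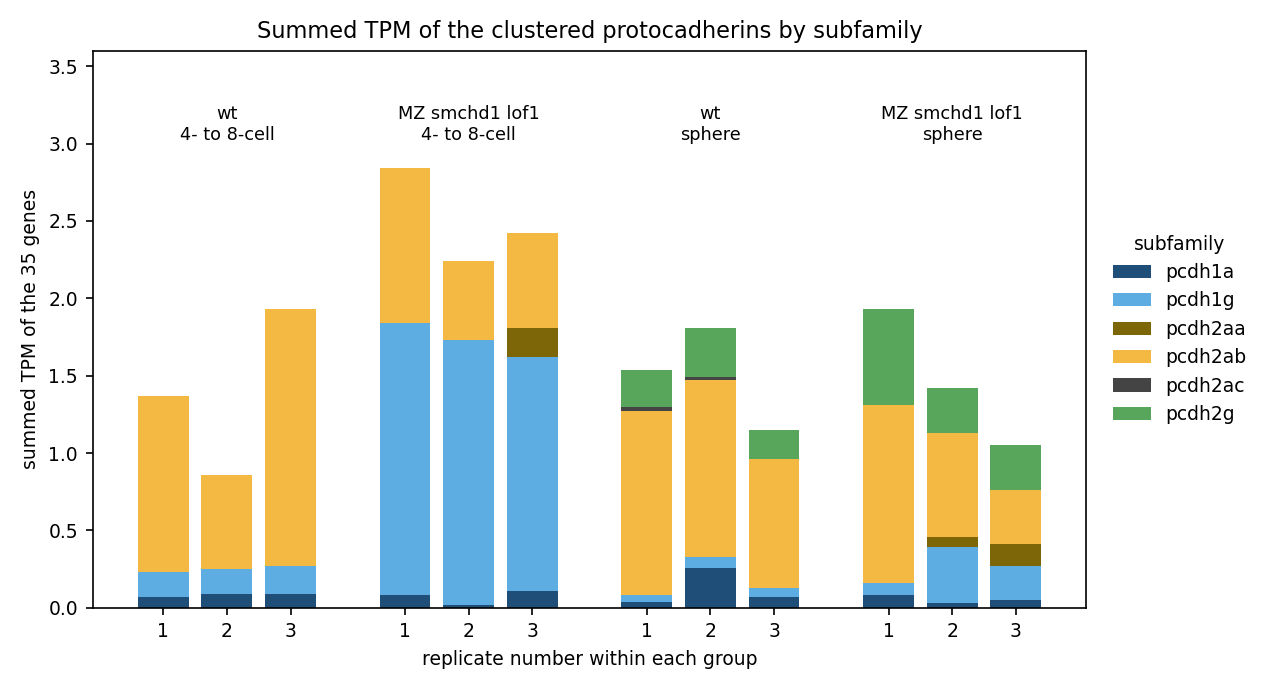
Summed TPM (vertical axis) of the 35 genes in each library (bars, 3 replicates per group), divided by subfamily. The pcdh1g part reaches 1.51 to 1.76 TPM in the MZ 4- to 8-cell libraries and at most 0.36 TPM in any other, and the pcdh2g part appears only in the sphere libraries.

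At the 4- to 8-cell stage single members moved in both directions between the genotypes. Expected counts were rounded and compared with the edgeR quasi-likelihood test, with genes kept at a scaled mean above 10 counts over the 6 libraries. Of the 35 members 4 passed this filter and 3 were called at an adjusted p under 0.05, where 3.02% of all 15937 genes tested were. In MZ embryos 2 of them were higher, pcdh1g3 and pcdh2ab10 (1.33% of all genes), and 1 was lower, pcdh2ab8 (1.69%). All 4 tested members, pcdh1g2 being the fourth, passed the filter through the counts of the genotype in which they were high. The number called among them is therefore no support for a family effect. Without the filter 17 members could be tested and the same 3 were called, where 2.3% of all genes were.

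pcdh1g3, a gamma-type gene, had 0 counts in each of the 3 wt libraries and 46.95, 34.48 and 27.84 expected counts in the MZ libraries. The genotypes did not overlap, and its mean in MZ embryos was 0.757 ± 0.0808 TPM (n = 3). It was 43.1-fold higher in MZ than in wt embryos with the wt group set to a floor of 3 counts (109 against 0 counts, adjusted p = 0.0161, edgeR quasi-likelihood). Its 0-to-all pattern was shared by 88 of the 23880 genes detected at this stage (0.369%).

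pcdh1g2 neighbours pcdh1g3 in the RefSeq gene order, where pcdh1g1, pcdh1g2 and pcdh1g3 follow each other. It had 5.87, 0 and 4.42 expected counts in wt and 31.66, 36.51 and 31.16 in MZ libraries. No wt library reached the lowest MZ library, and the ratio of the pooled rates was 11.9 (95% counting interval 6.19 to 25.5, 100 against 10 counts). The gene did not pass the test, however (log2 fold change of 3.56 with an SE of 0.79, adjusted p = 0.0636 in edgeR), although DESeq2 called it (adjusted p = 0.00187). Non-overlap alone was common at this stage, since the libraries of 28.9% of all tested genes did not overlap. The third gene of the row, pcdh1g1, had 4.29 expected counts over the MZ libraries of this stage and none in wt.

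pcdh1g2 and pcdh1g3 held 44.7% and 49.2% of the 222 pcdh1g counts in MZ embryos, and the other 16 pcdh1g genes the small remainder. In wt embryos the subfamily had 24 counts, of which pcdh1g2 held 42.9% and pcdh1g3 none. Every value above 0 of both genes at this stage was fractional. Their single levels and this division rest on how RSEM assigned shared reads, and whether the assignment was right was not tested. The pcdh1g sums were whole (8, 7 and 9 counts in wt, 86, 75 and 61 in MZ libraries).

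In the pcdh2ab subfamily the genotypes had overlapping totals held by different genes. pcdh2ab8 had 47.69, 21.58 and 60.35 expected counts in the wt libraries and 0 in each MZ library. It was the most abundant member in wt embryos, at 1.04 ± 0.523 TPM. With the MZ group set to the floor of 3 counts, it was 36.5-fold lower in MZ embryos (0 against 130 counts, adjusted p = 0.0327, edgeR quasi-likelihood). The reverse all-to-0 pattern was found in 123 of 23880 genes (0.515%). pcdh2ab10 had 0, 1.19 and 2.54 expected counts in wt and 41.97, 18 and 19.91 in MZ libraries. It was higher in MZ embryos with no overlap (log2 fold change of 4.38 with an SE of 0.84, adjusted p = 0.0464 in edgeR), and the ratio of pooled rates was 23.7 (counting interval 8.91 to 89.2, 80 against 4 counts).

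pcdh2ab8 thus held 90.6% of the 143 pcdh2ab counts in wt embryos (86.7 to 94.3% by library), and pcdh2ab10 held 93.0% of the 85.9 counts in MZ embryos (87.4 to 100%). The subfamily sum itself overlapped, at 1.14, 0.61 and 1.66 TPM in wt and 1.00, 0.51 and 0.61 TPM in MZ libraries. Nearly all values of both genes were fractional (8 of 8 and 10 of 11 above 0), so their division rests on how RSEM assigned shared reads, and whether the assignment was right was not tested.

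**Figure D3:**
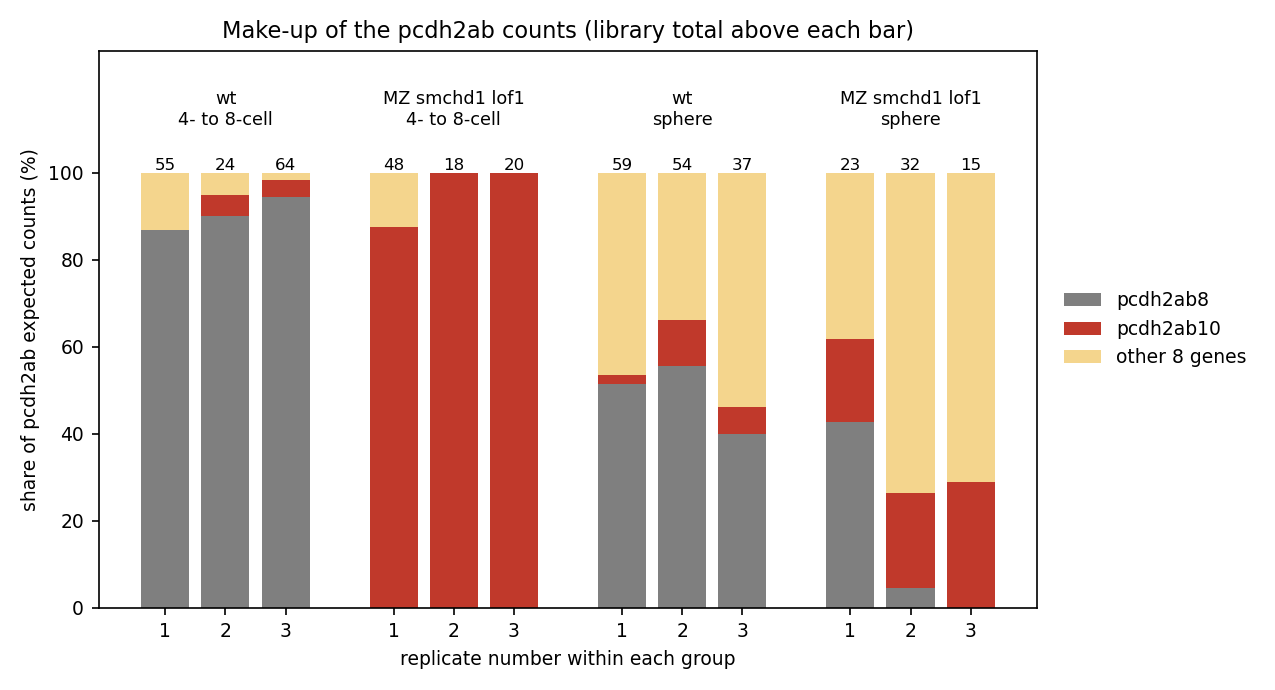
Share of the pcdh2ab expected counts (vertical axis, percent) held by pcdh2ab8, by pcdh2ab10 and by the other 8 genes in each library (bars, 3 replicates per group), with the library's pcdh2ab count above each bar. The leading gene differs between the genotypes at the 4- to 8-cell stage, and the other 8 genes take a larger part in the sphere libraries.

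These early calls were close to the threshold. On leaving out 1 library at a time, pcdh2ab8 was no longer called in any of the 6 cases (adjusted p 0.0524 to 0.0735), pcdh1g3 was lost without MZ replicate 1, 2 or 3 (0.0547 to 0.0622) but not without a wt library, and pcdh2ab10 was lost in the 5 cases in which it was tested (0.0517 to 0.122). The number of members called fell to 0 or 1 in these cases. The directions did not change, as leaving out a library cannot reverse groups that do not overlap. Limma on log2(TPM + 1) did not call pcdh2ab8 (adjusted p = 0.0513) or pcdh2ab10 (0.0541), while with log2(TPM + 0.1) it called both (0.0166 and 0.0251). With either pseudocount limma called pcdh1g3 (0.0241 and 0.00978) and also pcdh1g2 (0.0466 and 0.0368), which edgeR did not call.

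**Figure D4:**
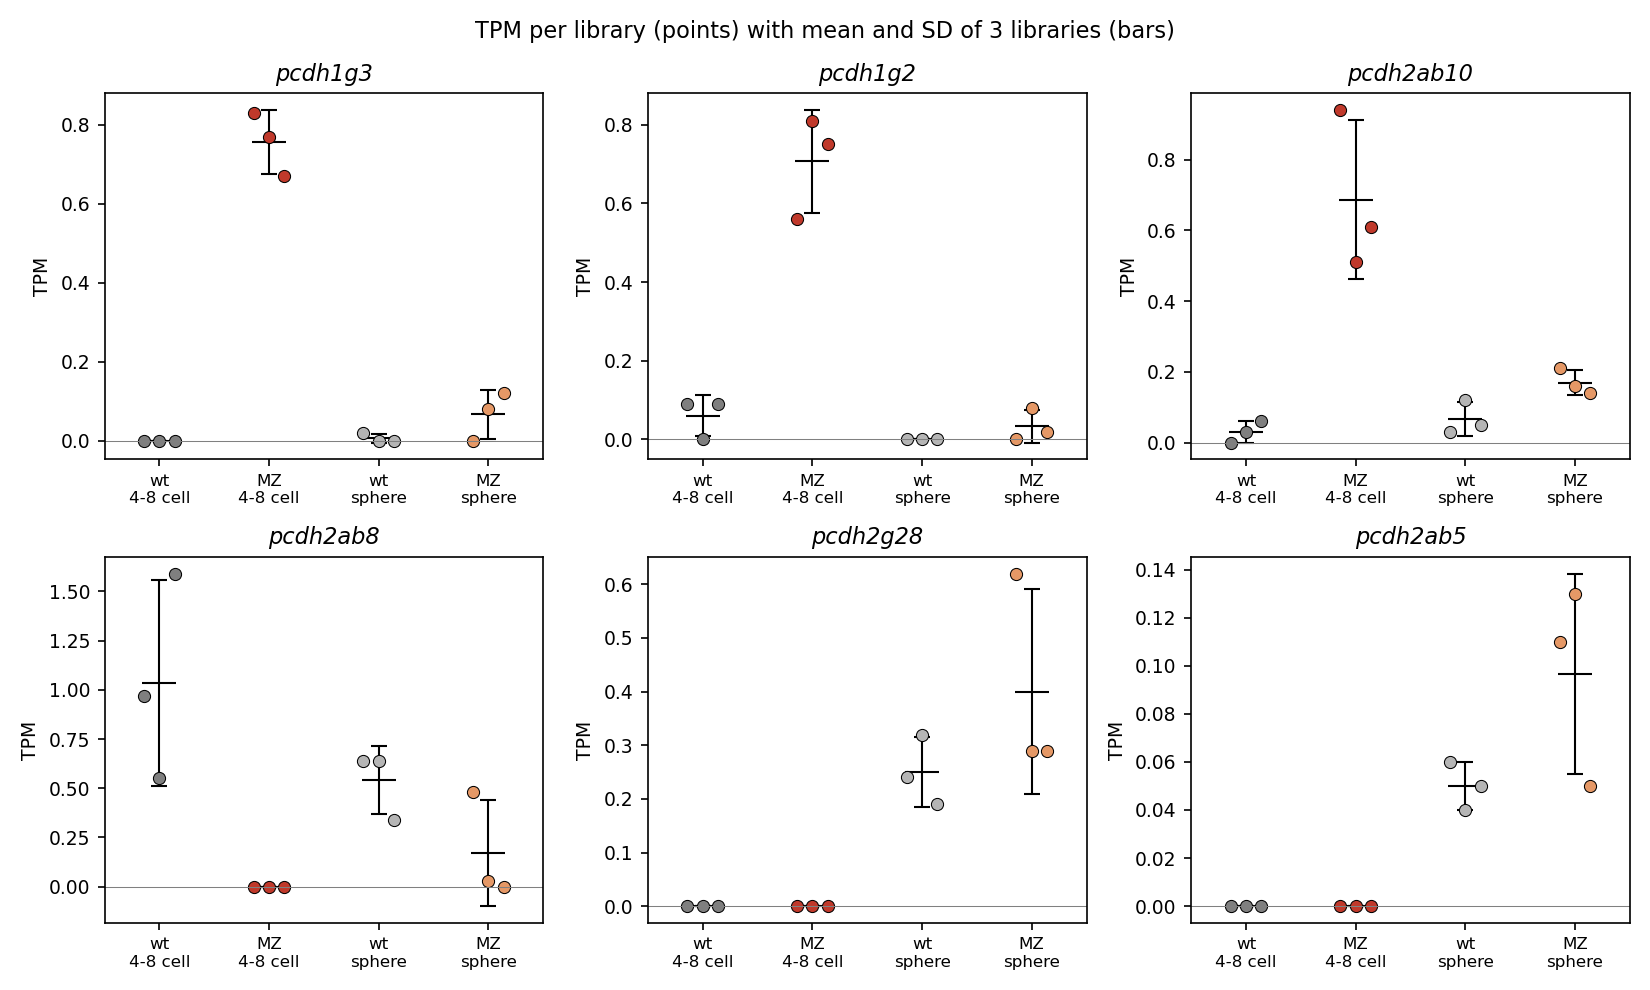
TPM (vertical axes, each on its own scale) of 6 members in the 4 groups, with a point for each library and bars for the mean and SD of 3 libraries. pcdh1g3, pcdh1g2 and pcdh2ab10 are highest in MZ embryos of the 4- to 8-cell stage, pcdh2ab8 is at 0 in all 3 of those libraries, and pcdh2g28 and pcdh2ab5 are above 0 only at the sphere stage.

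At the sphere stage the same genes were near the limit of detection or overlapped between genotypes. Of the 35 members 2 passed the filter, pcdh2ab8 and pcdh2g28, and 0 were called by edgeR, by DESeq2 or at an unadjusted p under 0.05, where edgeR called 7.78% of all 16314 genes tested. Without the filter 0 of 30 members were called (5.67% of all genes), and 4 had an unadjusted p under 0.05.

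pcdh2ab8 had 30.41, 29.82 and 14.77 expected counts in wt and 9.76, 1.43 and 0 in MZ libraries. On the CPM scale, 1.56 ± 0.558 against 0.459 ± 0.742 (n = 3 each), the highest MZ library lay within the wt range, and the test was not passed (log2 fold change of -2.07 with an SE of 1.1, adjusted p = 0.254 in edgeR). That library was MZ replicate 1, which held 9.76 of the 11.2 MZ counts and was also the smallest. Without it, pcdh2ab8 was lower in MZ embryos (log2 fold change of -5.24, adjusted p = 0.0243 in edgeR).

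pcdh1g3 had 1, 0 and 0 expected counts in wt and 0, 4.31 and 5 in MZ libraries, and was under the filter. The ratio of pooled rates was 11.7, with a counting interval of 1.62 to 513 for 9 against 1 counts, and the adjusted p without the filter was 0.198. pcdh1g2 had 0 counts in every wt library and 0, 4.31 and 1 in MZ libraries. By pooled counts it was 2.17-fold higher with wt set to the floor of 3 counts (adjusted p without the filter 0.215 in edgeR). pcdh2ab10 had 1.31, 5.71 and 2.26 expected counts in wt and 4.33, 7.06 and 4.42 in MZ libraries. Its TPM did not overlap (0.03 to 0.12 and 0.14 to 0.21), but its scaled CPM did, and the adjusted p without the filter was 0.442. At this depth a difference between the genotypes could not be shown for any of the 3.

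pcdh2g28, the only gamma-type member of the pcdh2 cluster among the 35, was present at the sphere stage in both genotypes. Its identifier has 7 transcripts, against 1 to 4 for the other members, and RefSeq lists further pcdh2g genes for which no identifier here is named. Whether the counts of pcdh2g28 come from more than 1 such gene was not tested, and its TPM and its rank carry that limit. It had 10, 13 and 7 counts in wt and 11, 10 and 8 in MZ libraries, all whole numbers, and 0 in all 6 libraries of the 4- to 8-cell stage. The genotypes overlapped at the sphere stage (log2 fold change of 0.44 with an SE of 0.53, adjusted p = 0.614 in edgeR), and the ratio of pooled rates was 1.26 (counting interval 0.728 to 2.17).

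Between the stages, more members of the pcdh2 cluster came into detection. In wt embryos 4 of the 14 pcdh2 members had a count in at least 1 library at the 4- to 8-cell stage and 12 at the sphere stage. In MZ embryos 3 and 10 had one. In both genotypes pcdh2g28 was detected at the sphere stage only. Of the members first detected at the sphere stage in wt, only pcdh2g28 and pcdh2ab11 had whole values. All values above 0 of pcdh2ab1, pcdh2ab3, pcdh2ab5, pcdh2ab6, pcdh2ab12 and pcdh2ac were fractional. Whether reads shared among relatives raised the number of members detected was not tested. Of the 21 pcdh1 members 8 were detected at the earlier and 10 at the later stage in wt, and 10 and 13 in MZ embryos. Over all identifiers detection also rose, from 72.7% to 79.0% in wt and from 71.9% to 77.5% in MZ embryos, and the differences between the clusters and all genes were not tested. The sphere libraries held 7829742 to 17266229 counts and the 4- to 8-cell libraries 15544834 to 23681822. pcdh2ab8 still led its subfamily in wt sphere embryos, with 50.0% of the 149.93 pcdh2ab counts (39.9 to 55.5% by library) against 90.6% at the earlier stage.

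Besides pcdh2g28, pcdh2ab5 also had 0 counts in all 6 libraries of the earlier stage and a count in all 6 of the later one, with 3.08, 1.73 and 2.27 expected counts in wt and 2.17, 5.72 and 1.49 in MZ libraries. This pattern was shown by 372 of 26564 detected genes (1.4%), while the reverse, found in 0.0151% of detected genes, was shown by 0 members. With the earlier stage set to the floor of 3 counts, pcdh2g28 was 13.4-fold higher at the sphere stage in wt and 14.4-fold in MZ embryos. By the same floor pcdh2ab5 was 3.12-fold and 4.47-fold higher. pcdh2ab3 was detected only in the wt sphere libraries, with 6.29, 1.71 and 3.4 expected counts, and pcdh2ab12 in all 3 wt (2.63, 2.29 and 3.4) and 2 of 3 MZ sphere libraries (2.17, 0 and 1.49). The pcdh2ab3 counts were too few to show a difference between genotypes (adjusted p without the filter 0.107, edgeR quasi-likelihood). All values above 0 of pcdh2ab3, pcdh2ab5 and pcdh2ab12 were fractional, so their single counts rest on how RSEM assigned shared reads.

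A test of the stage change in 1 fit to all 12 libraries could be made with the filter only for pcdh2ab8, since no other member had a scaled mean above 10 counts. In wt embryos its change did not pass (log2 fold change -0.31, SE 0.90, adjusted p = 0.801), where 48.3% of all 16595 genes tested were called. In MZ embryos it was called higher at the sphere stage (11 against 0 counts, 5.47-fold with the floor of 3 counts, adjusted p = 0.0475 in edgeR). In the same comparison 39.5% of all genes were called and 20% called higher. Here too MZ replicate 1 held most of the pcdh2ab8 counts and replicate 3 had none. Without that replicate the adjusted p was 0.244, and the call was lost on leaving out any of 10 of the 12 libraries, all but MZ replicates 2 and 3 of the sphere stage (adjusted p 0.0184 to 0.244 over the 12 cases). Whether the genotype difference itself changed between the stages was tested as an interaction. It was not called for pcdh2ab8 (log2 difference 6.04, SE 2.24, unadjusted p = 0.0234, adjusted p = 0.167, edgeR quasi-likelihood), where 1.97% of all genes were, and DESeq2 did not call it either (adjusted p = 0.0561).

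Without the filter 33 members could be tested over all 12 libraries. In wt embryos 4 were called higher at the sphere stage (pcdh2ab12, pcdh2ab3, pcdh2ab5 and pcdh2g28) and pcdh1g2 lower, where 33.3% of all genes were called (17.7% higher, 15.6% lower). In MZ embryos 4 were called higher (pcdh2ab2, pcdh2ab5, pcdh2ab8 and pcdh2g28) and 2 lower (pcdh1g2 and pcdh1g3), where 26.1% were called (13.7% higher, 12.4% lower). A share of 5 or 6 of 33 is below these backgrounds. However, 19 of the 33 had fewer than 10 expected counts over all libraries and could hardly be called whatever their change. The share therefore does not show whether the family changed less than other genes. The falls in MZ embryos were from 100 to 5 counts in pcdh1g2, 13.4-fold by pooled rates (counting interval 5.56 to 42.2, adjusted p = 0.00625), and from 109 to 9 counts in pcdh1g3, 8.12-fold (4.12 to 18.2, adjusted p = 0.00719, edgeR quasi-likelihood without the filter). pcdh2ab10 had 80 and 15 counts, 3.58-fold fewer by pooled rates (2.04 to 6.69), and was not called (adjusted p = 0.074). Interactions were called for 0 of the 33 (0.941% of all genes), and 3 had an unadjusted p under 0.05, pcdh1g3, pcdh2ab10 and pcdh2ab8. Members with 0 counts in both groups of the earlier stage, such as pcdh2g28, pcdh2ab3 and pcdh2ab5, could not be called in this test whatever their change. The absence of calls therefore does not show that the genotype difference was the same at both stages.

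The order of the members by mean TPM differed between the groups. In wt embryos of the 4- to 8-cell stage pcdh2ab8 stood at 1.04 ± 0.523 TPM and every other member at 0.0667 TPM or less. In MZ embryos of that stage pcdh1g3 (0.757 ± 0.0808), pcdh1g2 (0.707 ± 0.131) and pcdh2ab10 (0.687 ± 0.225) did not differ beyond their spread, and the next member, pcdh1g26, was at 0.0867 ± 0.15 TPM from 1 library. In wt sphere embryos pcdh2ab8 (0.54 ± 0.173) was followed by pcdh2g28 (0.25 ± 0.0656), whose libraries lay just below, and by pcdh2ab2 (0.143 ± 0.0737), which overlapped pcdh2g28. In MZ sphere embryos pcdh2g28 (0.40 ± 0.191) lay above pcdh2ab10 (0.17 ± 0.0361) in every library, and pcdh2ab10, pcdh2ab8 (0.17 ± 0.269) and pcdh2ab2 (0.13 ± 0.121) overlapped.

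The remaining members with 10 or more expected counts over the 12 libraries were few and scattered. pcdh2ab2 totalled 35.99 counts, with 7.31, 1.23 and 0 in wt and 0 in every MZ library of the earlier stage, and 2.6, 7 and 7.72 in wt and 4.38, 5.75 and 0 in MZ libraries of the later one. pcdh2ab9 totalled 33.88, of which 1.11 fell in the wt and 6.03 in the MZ libraries of the earlier stage. pcdh1a3 totalled 21.25, pcdh2aa15 13.4, pcdh2ab6 10.52 and pcdh1a4 10.1 expected counts. pcdh2aa15 was detected in MZ libraries only, 1 of 3 at the earlier stage (6.05) and 2 of 3 at the later (2.86 and 4.49), and at the later stage its adjusted p without the filter was 0.15. pcdh1a4 and pcdh1a3 were spread over all 4 groups. The 19 members with fewer counts were 1 pcdh1a gene, 15 pcdh1g genes, 2 pcdh2ab genes and pcdh2ac, none with more than 8.09 counts in all.

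Genes beside the clusters were looked at as well, the 5 nearest on each side in the RefSeq order whose symbol matched exactly 1 identifier here. Nearer genes without such a match were passed over. Of 10 genes around the pcdh2 cluster, 5 were tested at the 4- to 8-cell stage, where 3.02% of all genes were called. The 1 called was etf1a, a translation release factor gene, higher in MZ embryos (2 against 63 counts, log2 fold change 4.98, SE 0.67, adjusted p = 0.0178 in edgeR). etf1a had 1 count in wt and 47 in MZ sphere libraries, under the filter. For zgc:152774 the counts were 107 (wt) and 5 (MZ) at the earlier stage (adjusted p = 0.0806 in edgeR). At the later stage they were 90 and 7, and the gene was lower in MZ embryos (log2 fold change of -3.17 with an SE of 0.59, adjusted p = 0.0237 in edgeR). It was the only 1 called of the 4 tested there, where 7.78% of all genes were called. Of 10 genes around the pcdh1 cluster, 5 were tested at the 4- to 8-cell stage and 4 at the sphere stage. The only call was kcnip3b, a gene of the potassium channel-interacting family, higher in MZ embryos of the 4- to 8-cell stage (62 against 200 counts, log2 fold change 1.94, SE 0.36, adjusted p = 0.0417 in edgeR). It was not called at the sphere stage (72 and 63 counts, adjusted p = 0.711 in edgeR). Whether the calls beside the clusters are linked to the clusters was not tested.

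Single protocadherins, which lie outside the clusters, were compared in the same fits, with 3.02% of all genes called at the 4- to 8-cell stage and 7.78% at the sphere stage as the background for each list named here. Of 9 identifiers tested at the earlier stage 0 were called by edgeR or DESeq2 and 1 had an unadjusted p under 0.05, with a median log2 fold change of 0.17 against 0.0034 over all genes. An identifier named PCDH18 (0.87, SE 0.26, adjusted p = 0.118), PCDH17 (1.22, SE 0.68, adjusted p = 0.343) and pcdh15b (0.43, SE 0.24, adjusted p = 0.346) had higher values in all 3 MZ than in all 3 wt libraries without passing the test. In either direction, the libraries of 28.9% of all genes tested did not overlap at this stage. In sphere embryos 2 of 11 were called higher by edgeR. They were pcdh15b (log2 fold change 1.30, SE 0.25, adjusted p = 0.0252) and an identifier named PCDH15 (2.00, SE 0.38, adjusted p = 0.0255), which encode a protein of the hair cell tip link. In either direction, 4 had an unadjusted p under 0.05 and 3 were called by DESeq2. A second identifier named PCDH15 was higher in MZ embryos but did not pass (0.67, SE 0.20, adjusted p = 0.0807 in edgeR). pcdh11 was lower in MZ embryos and did not pass either (-1.06, SE 0.45, adjusted p = 0.172 in edgeR).

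Among genes known to act at clustered protocadherin promoters, such as CTCF, cohesin and DNA methylation genes, 26 were tested at each stage. The targeted SMCHD1 was lower at both stages, 1 other was higher at the earlier and 2 at the later stage, all by edgeR. At the 2 stages 5 and 11 of the 26 were under 0.05 before adjustment, and 4 and 7 were called by DESeq2. The cohesin acetyltransferase gene ESCO2 was higher in MZ embryos of the 4- to 8-cell stage (0.87, SE 0.09, adjusted p = 0.00944). The histone methyltransferase gene setdb1a (0.59, SE 0.11, adjusted p = 0.0251) and 1 of 2 identifiers of the cohesin subunit gene STAG1 (0.84, SE 0.20, adjusted p = 0.0452) were higher at the sphere stage, and the other STAG1 identifier did not pass (0.20, adjusted p = 0.304). Of the kinases and other intracellular partners of the family 0 of 8 and 0 of 6 were called by edgeR at the earlier and later stage, with 3 and 2 at an unadjusted p under 0.05 and 1 and 0 by DESeq2.

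Classical cadherins and catenins had 0 of 15 called by edgeR at the earlier stage, 2 at an unadjusted p under 0.05 and 1 by DESeq2. At the later stage 4 of 16 were lower and 0 higher (4 at an unadjusted p under 0.05, 4 by DESeq2), where 4.07% of all genes were called lower, among them CTNNA2 (-0.91, SE 0.16, adjusted p = 0.0219), ctnna1 (-0.50, SE 0.11, adjusted p = 0.042) and 1 of 2 identifiers named JUP (-1.51, SE 0.35, adjusted p = 0.0433). The other JUP identifier had a log2 fold change of 0.65 (adjusted p = 0.49).

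Neurons, where the family is best known, are not formed at these stages, but some neuron markers were detected. SYT1 was the highest at the 4- to 8-cell stage, with a mean of 5.01 (wt) and 3.65 CPM (MZ). The 15 neuron marker identifiers summed to 10.5 to 14.5 CPM (wt) and 7.31 to 10.4 CPM (MZ) at the 4- to 8-cell stage, without overlap. Of all single genes tested, 28.9% did not overlap at that stage, which is the background for the marker sums here. At the sphere stage they summed to 17.7 to 19.3 and 13.7 to 20.8 CPM, with NEUROD1 at 0 in all libraries. The highest there were syn1 in wt (5.07 CPM, against 1.87 in MZ) and an STMN2 identifier in MZ embryos (6.46 CPM, against 3.66 in wt). By edgeR 0 were called at either stage (2 at an unadjusted p under 0.05 at each stage, 0 and 1 by DESeq2). Markers of the ovarian follicle, whose cells surround the egg, summed to 292 to 475 CPM (wt) and 206 to 269 CPM (MZ) at the 4- to 8-cell stage, without overlap, and nearly all of it was CYP11A1 and CYP17A1. The other 10 identifiers of the list were at 1.41 CPM or less in wt and 0.877 CPM or less in MZ embryos. The highest of them was a FOXL2 identifier, at 1.41 (wt) and 0.877 CPM (MZ), where pcdh2ab8 was at 2.03 CPM in wt embryos. FSHR was at 0 in both genotypes at that stage, and 0 of 3 follicle genes tested were called by edgeR (1 at an unadjusted p under 0.05 and 1 by DESeq2). Their part in the early differences was not tested. At the sphere stage the higher CYP11A1 identifier was still at 134 (wt) and 84.1 CPM (MZ), and CYP17A1 at 120 and 138 CPM. Blood markers summed to at most 0.402 CPM at the 4- to 8-cell stage.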

How the data were processed

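Poly-A RNA of 12 libraries was sequenced by the authors from both ends and mapped to danRer10 with the Ensembl annotation, with Bowtie and RSEM named in the submitters' processing notes. The deposited expected counts (estimated counts per gene, fractional where reads are shared) were rounded, and the deposited TPM values were summed over members. A gene name table and RefSeq gave 25752 identifiers (81.9%) a symbol. The 1 ribosomal RNA gene found by name was left out. Genes with a scaled mean count above 10 were tested with edgeR 4.0.16 (R 4.3.3, TMM scaling, quasi-likelihood), in 1 fit per stage for the genotypes and 1 fit of 12 libraries for the stages, with Benjamini-Hochberg adjustment over the genes of each fit. For folds, a group at 0 counts was set to 3 counts in total. Counting intervals (95%, exact) cover counting error only. Floors allow for counting error in the group at 0 but not in the other group. A fold from a floor is therefore not a strict lower limit, least of all where the other group has few counts. The study counts the libraries as biological samples but does not say whether they came from separate clutches, so p-values measure the spread between these samples.

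Members and lists were chosen with earlier results of these data known. Every member that passed the filter in any fit was described per library, those with 10 or more counts in all were named, and up to 3 called genes per comparison list. Alternatives were other scaling, other filters, unrounded counts, DESeq2 1.42.0, limma 3.58.1 on log2(TPM + 0.1) or log2(TPM + 1), genotypes fitted over all 12 libraries, the ribosomal gene kept, a replicate block, and each library left out. The fitting code was tested on simulated data.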

Additional observations from a re-analysis of the deposited data

How the results depend on the processing

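The directions of pcdh1g3, pcdh1g2, pcdh2ab10 and pcdh2ab8 between genotypes at the 4- to 8-cell stage were kept under every alternative in which they were tested. Their wt and MZ libraries lie apart without overlap, so these alternatives could hardly have changed a direction. The depth of a few counts per library limits every other member. Genes called at that stage numbered 482, but 1927 with DESeq2 and 125 to 333 on leaving out a library (231 and 282 without wt replicates 2 and 3, 136, 173 and 125 without MZ replicates 1, 2 and 3). At the sphere stage they numbered 1269, but 2591 in the fit to all 12 libraries, 2725 with DESeq2, and 84 to 1250 on leaving out a library (427 without wt replicate 1, 84 and 108 without MZ replicates 2 and 3). With no scaling factor 749 of the sphere calls were higher and 449 lower, against 605 and 664. Members called at the 4- to 8-cell stage numbered 3 of 4 tested, but 0 to 1 on leaving out a library, with 3 or 4 tested. In the fit to all 12 libraries only 1 member, pcdh2ab8, passed the filter, and it was called. At the sphere stage they numbered 0 to 1 on leaving out a library, the 1 being pcdh2ab8 without MZ replicate 1.

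For the stage change, members called in wt embryos were 0 of 1 tested, but 5 of 33 with no filter and 2 of 5 with filterByExpr. On leaving out a library 0 to 1 were called, with 1 to 3 tested. In MZ embryos they were 1 of 1 tested, but 6 of 33 with no filter, 4 of 5 with filterByExpr and 0 of 1 with limma at either pseudocount. On leaving out a library 0 to 2 were called, with 1 to 3 tested. The log2 stage change of pcdh2ab8 in wt embryos ranged from -0.622 to 0.079, the last without wt replicate 3 of the 4- to 8-cell stage. The interaction was called for 0 members in every alternative, and without the filter many members with groups at 0 counts could not be called. The summed TPM ratio at the 4- to 8-cell stage was 1.52 to 2.24 on leaving out a library, but 0.773 when the 2 identifiers named PCDH1, a single protocadherin, were added. Causes not shown by the alternative's own construction were not tested.

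The replicate numbers in the labels are shared between groups. Correlations of same-numbered deviations were 0.071, 0.038 and 0.028 at the 4- to 8-cell stage and 0.022, -0.004 and 0.252 at the sphere stage, so the numbers were not taken as pairs. With the replicate number as a block, 66 genes and 0 members were called at the 4- to 8-cell stage (adjusted p 0.103 for pcdh2ab8, 0.101 for pcdh1g3 and 0.118 for pcdh2ab10), and 0 members for the stage change in MZ embryos.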

Other observations

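Outside the 35 members, other identifiers with protocadherin names showed how much the family sum depends on which names are counted. An identifier named PCDH1, the single protocadherin gene, had 1181, 666 and 366 expected counts in wt and 192, 936 and 54 in MZ libraries of the 4- to 8-cell stage, and 3460, 3791 and 2708 in wt and 1794, 3990 and 2398 in MZ libraries of the sphere stage. Its 3 MZ libraries of the earlier stage spanned a wider range than the wt libraries and overlapped them. A second PCDH1 identifier had 42 and 21 counts over the wt and MZ libraries of the earlier stage and 21 and 19 at the later one. The identifiers pcdhb and pcdha8l, which carry no cluster number, had 2 counts and 0 counts over all libraries.

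Among the genes beside the pcdh2 cluster, bbs12, a chaperonin-like gene of the primary cilium, had 15.02, 43 and 77 expected counts in wt and 162, 130 and 93 in MZ libraries of the 4- to 8-cell stage (log2 fold change 1.69, SE 0.59, adjusted p = 0.161). At the sphere stage it had 20, 49 and 20 in wt and 21, 101 and 120 in MZ libraries (1.71, SE 0.55, adjusted p = 0.0932, edgeR quasi-likelihood). si:ch73-233f7.7 had 0, 2 and 0 counts in wt and 6, 6 and 9 in MZ sphere libraries and none at the earlier stage. Both genes were named after their values were seen.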
